A study of Homo sapiens with 2 samples.

Results

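The genes described here are 10 that sense misplaced nucleic acid or clear it away: CGAS, STING1, RIGI, IFIH1, TLR3, MAVS, TREX1, DNASE1L3, DNASE2 and SAMHD1. They were chosen by gene symbol, with their differences between these 2 arrays already known, so their values are a description and carry no test. They were read by 12 of the 47323 probes, and they are 10 of 20046 genes with a named probe. The cells were A4573, an established line of Ewing sarcoma, a cancer of bone and soft tissue that carries an EWSR1 fusion. One group was the wild-type culture and the other a radiation-adapted culture of the same line, whose label carries 4 Gy, with no schedule, number of passages or interval before harvest given. Each group was 1 array of total RNA, so no difference below has a replicate check, and culture, array and adaptation cannot be told apart. In RNA from a whole culture, fewer cells with a transcript and less of it per cell also cannot be told apart.

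Cells carry receptors for DNA and RNA found in the wrong place, such as DNA in the cytosol after chromosome damage. CGAS binds cytosolic DNA and makes a cyclic dinucleotide that switches on STING1, a membrane adaptor of the endoplasmic reticulum. RIGI and IFIH1 (also called MDA5) bind viral-type RNA in the cytosol and signal through MAVS on mitochondria, while TLR3 reads double-stranded RNA in endosomes. All of these routes lead to type I interferon and to interferon-stimulated genes, among which RIGI, IFIH1 and TLR3 themselves are counted. Nucleases keep the sensors quiet: TREX1 degrades DNA in the cytosol, DNASE2 in lysosomes and DNASE1L3, a secreted enzyme, in chromatin released from dying cells. SAMHD1 hydrolyses deoxynucleotides and acts on nascent DNA at stalled replication forks.

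With the limit for detection set at a detection p of 0.01, the wild-type array detected 37.8% of its probes and the adapted array 35.3%, and the dimmest of them read 152 and 158. The detection p is the share of the array's negative control probes, 770 by the step of its values, that were at least as bright as the probe. All 7 Ewing sarcoma markers were detected in both arrays, including CD99 (3900 and 3210), NKX2-2 (2687 and 2997) and FLI1 (370 and 634), intensities in the wild-type and the adapted array. Below, an intensity is the deposited signal before normalisation, and a difference is the normalised log2 value in the adapted array minus that in the wild-type array.

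The promoters of 3 members are shown because DNASE1L3 had the largest difference of the 10 genes, and IFIH1 and TLR3 were the members whose promoter held the core of the interferon-stimulated response element. That core was searched as GAAA, any 2 bases, GAAA, on either strand. The sequences are RefSeq's for GRCh38.p14, from 250 bases before to 50 after the start of each gene, written 5′ to 3′ on the strand of the gene, with matches in capitals. DNASE1L3 lies on the minus strand at chr3:58210923-58211222, IFIH1 on the minus strand at chr2:162318635-162318934 and TLR3 on the plus strand at chr4:186068906-186069205.
DNASE1L3: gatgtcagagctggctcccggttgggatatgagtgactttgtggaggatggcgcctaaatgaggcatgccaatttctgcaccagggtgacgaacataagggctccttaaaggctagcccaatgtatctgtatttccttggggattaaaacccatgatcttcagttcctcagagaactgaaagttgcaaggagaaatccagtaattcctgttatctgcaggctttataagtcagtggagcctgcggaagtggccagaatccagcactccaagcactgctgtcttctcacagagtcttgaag
IFIH1: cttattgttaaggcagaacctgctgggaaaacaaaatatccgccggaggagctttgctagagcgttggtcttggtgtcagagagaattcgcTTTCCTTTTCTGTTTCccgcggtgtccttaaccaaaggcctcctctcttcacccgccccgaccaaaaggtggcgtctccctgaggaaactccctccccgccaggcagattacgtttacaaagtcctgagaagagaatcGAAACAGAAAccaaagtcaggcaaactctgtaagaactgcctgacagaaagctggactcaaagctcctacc
TLR3: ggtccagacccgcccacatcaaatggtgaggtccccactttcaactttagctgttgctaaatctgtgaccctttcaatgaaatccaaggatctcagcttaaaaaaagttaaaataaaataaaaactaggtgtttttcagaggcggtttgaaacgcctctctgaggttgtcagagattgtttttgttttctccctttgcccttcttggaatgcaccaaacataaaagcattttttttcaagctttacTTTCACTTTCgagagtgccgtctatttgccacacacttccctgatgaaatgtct
The IFIH1 promoter held 3 matches, which begin at bases -159, -153 and -21 from the start site, the first 2 of them overlapping. The TLR3 promoter held 1 match, at base -4, which runs over the start site. No match was found in the DNASE1L3 window. Of the 8 members in the promoter table (all but CGAS and STING1), these 2 held the core, and 3.65% of all 27305 promoters of that length did. With 1 mismatch allowed, 5 of the 8 and 33.4% of all promoters held it. A match describes the letters only and shows no binding.

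Among the 10 genes, 1 differed strongly between the arrays. DNASE1L3 was at background in the wild-type culture and well above it in the adapted culture, at least 15.7-fold higher, or at least 4.85-fold without background correction. IFIH1 was 1.62-fold lower in the adapted array, a difference that was 1.22-fold without background correction and 1.40-fold when the offset was raised to 50. STING1, MAVS and DNASE2 were detected in both arrays and differed between them by less than 1.5-fold. CGAS, RIGI, TLR3, TREX1 and SAMHD1 were detected in neither array. Thus 5 of 10 genes were above background in at least 1 array, as were 56.4% of all genes with a named probe.

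Of the 5 detected members, 1 (DNASE1L3) passed 1.5-fold upwards and 1 (IFIH1) downwards. Over all 11296 genes detected in at least 1 array, 11.8% were that much higher (1332 genes) and 12.2% lower (1375 genes), and with scaling to the median in place of quantile normalisation these counts were 2156 and 1014. Since the members were chosen with this comparison known, nothing is read from their count against those shares. The median difference over all genes was 0.01, with quartiles of -0.37 and 0.36.

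**Figure D1:**
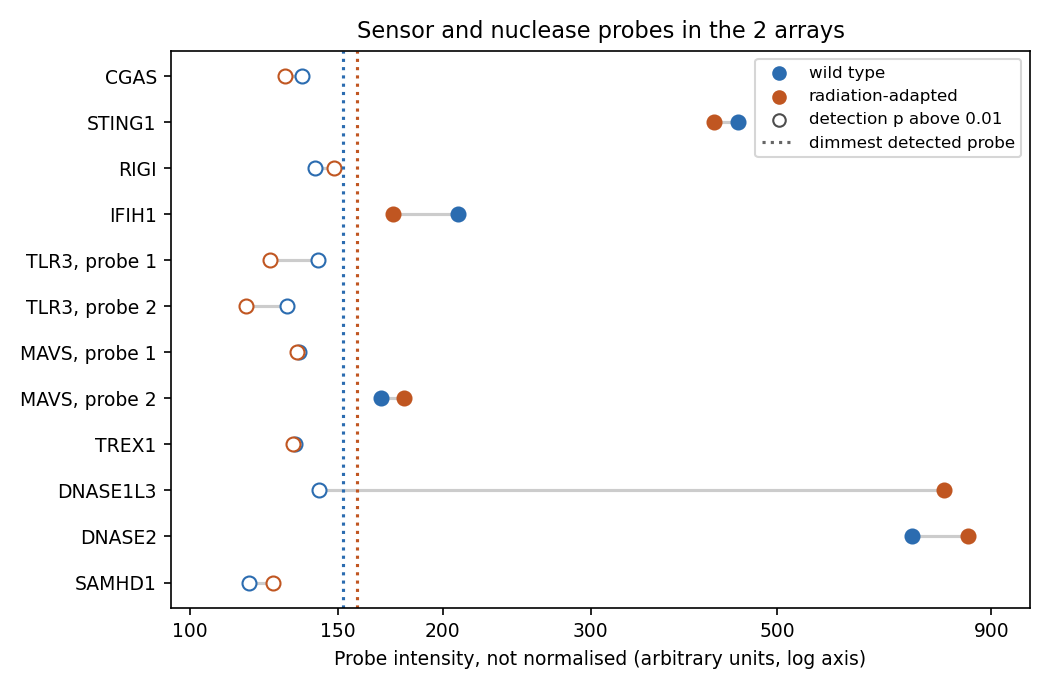
Intensity of each of the 12 probes before normalisation (x axis, arbitrary units, log axis) in the wild-type (blue) and the radiation-adapted array (orange), 1 row a probe. Filled points passed the detection limit of 0.01, open points did not, and the dotted lines mark the dimmest detected probe of each array (152 and 158); the DNASE1L3 points lie at 142 and 791.

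On the cytosolic DNA route, the adaptor STING1 was detected and the DNA sensor CGAS was not. The STING1 probe read 449 for wild-type and 421 for adapted cells, and none of the negative controls was as bright in either. Its difference was -0.34, inside the quartiles of all genes. The CGAS probe read 136 and 130, with 18.4% and 44.4% of the negative controls at least as bright. CGAS, the enzyme that makes the signal STING1 answers to, was therefore not above background on either array, and no fold is given.

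The cytosolic RNA sensors stood close to the limit of detection. The IFIH1 probe read 209 for wild-type and 174 for adapted cells, with a detection p of 0 and 0.0013. Its difference was -0.70, below the lower quartile of all genes. Pairs of probes of the same gene were compared where the dimmer had a mean log2 value of 6 to 8, whatever the brighter one read. Their differences scattered with an SD of 0.31 per probe (1187 genes), a figure for probes within these 2 arrays and not for cultures. For IFIH1 the value shrank to -0.28 without background correction and to -0.49 when the offset was raised to 50, both under 1.5-fold.

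The RIGI probe read 141 and 148, with detection p values of 0.0883 and 0.0481. At a limit of 0.05 RIGI would count as detected in the adapted array alone. RIGI is a helicase related to IFIH1, and since both of its readings were at background no fold is given for it.

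For MAVS, the adaptor below both helicases, 1 of 2 probes was detected. That probe read 169 for wild-type and 180 for adapted cells, a difference of 0.21, with detection p values of 0.0026 and 0.0013. The other probe of MAVS read 135 and 134 and was at background in both arrays. The detected probe lay near the dimmest detected signal of each array, and its difference was 0.07 without background correction.

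Both TLR3 probes were at background. One read 142 for wild-type and 125 for adapted cells, and the other 131 and 117. In each case at least 6.88% of the negative controls were as bright, so TLR3, the endosomal receptor for double-stranded RNA, has no fold here.

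Among the nucleases, DNASE1L3 was the one that differed. Its probe read 142 on wild-type RNA, where 6.75% of the negative controls were at least as bright, and 791 on RNA of adapted cells, where none was. The ratio of the 2 intensities, with background included, was 5.56. After normalisation the log2 values were 4.98 and 9.29, and set against the dimmest detected probe of the wild-type array the difference was at least 3.97, or 15.7-fold. Of the 11296 genes, DNASE1L3 had the highest value in the direction of the adapted array. It ranked second without background correction, where the bound fell to 4.85-fold, and first under the other 6 settings tried, 1 of which sets aside the detection limit and so reads the background signal as a value. A single probe stands for DNASE1L3 on this array.

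DNASE1L3 is known mainly from dendritic cells, macrophages and endothelial cells of the liver sinusoids, so leukocyte markers were read beside it. Of 11 leukocyte markers on the array, 5 were detected in at least 1 array, 0 passed 1.5-fold upwards and 2 downwards. The pan-leukocyte antigen PTPRC and also CD3E, CD3D, MS4A1, LYZ and ITGAM were detected in neither array. CD68 (611 and 567) and CD14 (166 and 159) were detected in both arrays and differed by less than 1.5-fold. No endothelial markers were read, and the cell type behind the DNASE1L3 signal was not tested. The summed intensity of the detected leukocyte markers was 2007 for wild-type and 1385 for adapted cells. LCP1, an actin-bundling protein, had the lowest difference among them (698 and 230, -2.48), and HLA-DRA stood at 369 and 281. Of 10 fibroblast markers, 8 were detected, 3 higher and 3 lower, with summed intensities of 3907 and 4279. Beside both marker lists, 11.8% of all detected genes were higher and 12.2% lower.

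DNASE2, the acid nuclease of lysosomes, read 725 for wild-type and 843 for adapted cells. Its normalised difference was 0.02, or 0.26 with scaling to the median. TREX1, the main DNA exonuclease of the cytosol, read 133 in both arrays to the nearest unit, with 26.1% and 34.4% of the negative controls as bright. SAMHD1 read 117 and 126, with 87.0% and 60.1% of the negative controls as bright. Neither TREX1 nor SAMHD1 was above background, so neither has a fold. A probe at background bounds a transcript only as far as that probe binds it.

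The 7 probes of members that were detected in neither array read between 117 and 148, and their detection p ran from 0.0481 to 0.909. For CGAS, TREX1, SAMHD1, RIGI and TLR3 a difference was thus not detectable on these arrays, which is not a statement that the genes were silent.

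**Figure D2:**
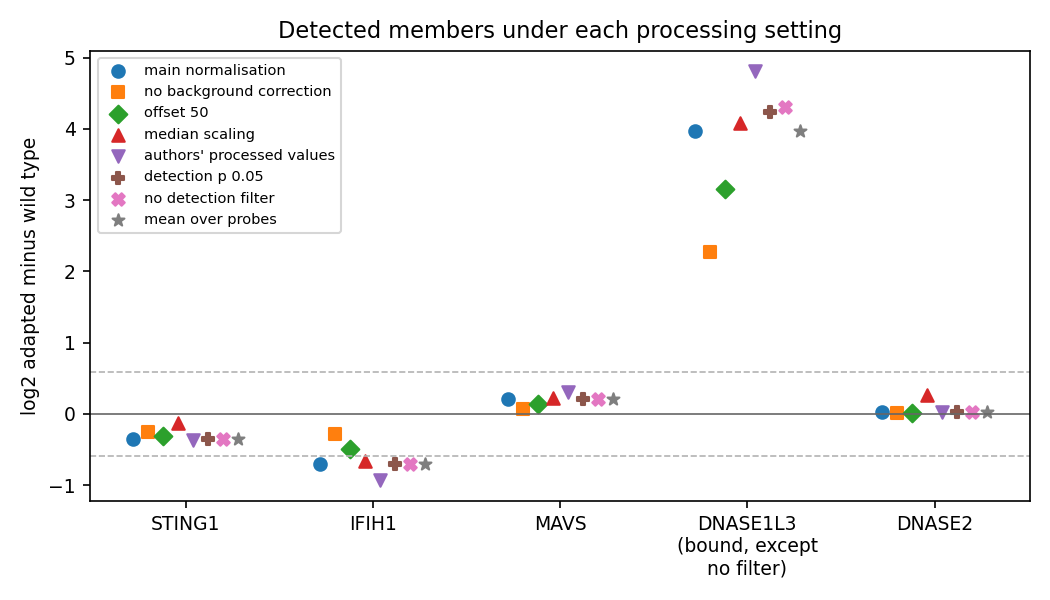
Difference in log2 (adapted minus wild type, y axis) of the 5 detected members under the main normalisation and 7 other settings, 1 marker a setting; dashed lines mark 1.5-fold. DNASE1L3, shown as a lower bound except without the detection filter, lies between 2.28 and 4.81, IFIH1 between -0.93 and -0.28, and the other 3 within 1.5-fold throughout.

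The other genes of the pathway were taken from 6 lists written from general knowledge, and each is given by its counts beside the shares of all genes above (11.8% higher and 12.2% lower). Of 21 detected genes among other sensors of nucleic acid, 5 passed 1.5-fold upwards and 2 downwards, and their median difference was 0.06. IFI16, a nuclear and cytosolic DNA sensor, read 407 for wild-type and 888 for adapted cells, a difference of 1.16. EIF2AK2 (PKR), the kinase that stops translation on double-stranded RNA, read 776 and 1434 (0.74), and the helicase DDX1 1042 and 1869 (0.64). These 3 stayed past 1.5-fold without background correction, with the larger offset, with scaling to the median, in the authors' processed values and with the mean over probes. The lower ones were OAS1, seen on the wild-type array alone (191 and 157, at least 1.76-fold lower), and OAS3 (244 and 197, -0.73), both synthetases of the messenger that activates ribonuclease L. The adapted reading of OAS1 missed the detection limit narrowly, with a detection p of 0.0117. Neither OAS1 nor OAS3 was 1.5-fold lower without background correction. XRCC6 (0.61) and PRKDC (0.61), listed here as DNA sensors and better known for end joining, made up the count, and the probes of PRKDC differed in sign. Both were under 1.5-fold without background correction, XRCC6 narrowly (0.584) and PRKDC at 0.540. XRCC6 was also under it in the authors' processed values (0.582), and PRKDC with the mean over probes (0.487). DHX58, the regulator related to RIGI and IFIH1, and the inflammasome sensor AIM2 passed the detection limit on the wild-type array only, too dimly for a fold. ZBP1, TLR8, TLR9 and OAS2 were among 8 detected in neither array.

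Among 17 detected adaptors and kinases below the sensors, 4 passed 1.5-fold downwards and 1 upwards, and the median difference was -0.12, or 0.00 with scaling to the median, which moved the median of all genes to 0.17. UNC93B1, the chaperone that carries TLR3 and related receptors to endosomes, read 374 and 198, a difference of -1.74. The NF-kB subunit gene NFKB1 read 1241 and 625 (-1.38), and the transcription factor IRF1, seen on the wild-type array alone, 217 and 143, at least 2.40-fold lower. TICAM1, the adaptor of TLR3, had a difference of -0.71, but its probes differed in sign. AZI2, an adaptor of the kinase TBK1, was the higher one (228 and 346, 0.88). UNC93B1 and NFKB1 kept 1.5-fold without background correction, and IRF1, TICAM1 and AZI2 did not. TRAF6, a ubiquitin ligase (191 and 192, -0.03), and the NF-kB subunit gene RELA (267 and 287, 0.05) were named because they lay nearest to 0 on this list. The kinases TBK1 (530 and 513, -0.29) and IKBKE (213 and 184, -0.55), their adaptor TANK (368 and 329, -0.42) and the transcription factor IRF3 (341 and 351, -0.12), which act directly below STING1 and MAVS, were named after their values were seen, and each differed by less than 1.5-fold.

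Of 23 detected genes that regulate the sensors, 2 passed 1.5-fold downwards and 1 upwards, around a median difference of -0.20, or 0.04 with scaling to the median. SURF4, which returns STING1 to the endoplasmic reticulum, read 1631 for wild-type and 862 for adapted cells, a difference of -1.28. LRRC8A, a subunit of the anion channel that carries the CGAS product between cells, read 255 and 199 (-0.82, or -0.41 without background correction). TFAM, which packages mitochondrial DNA, read 617 and 1099 (0.72).

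Of 23 detected nucleases and RNA-clearing enzymes besides the members, 4 passed 1.5-fold upwards and 2 downwards, around a median difference of 0.24. The decapping enzyme DCP2 read 242 and 739, a difference of 2.11, and the exonuclease EXO1 270 and 519 (1.20). TDP2, a DNA end-processing phosphodiesterase, passed the detection limit on the adapted array alone (150.1 and 192.5). It was at least 1.96-fold higher there, or 1.25-fold without background correction, and its log2 bound was 0.68 with the mean over probes. The wild-type reading of TDP2 missed the limit narrowly, with a detection p of 0.0156. RNASEH2B, a subunit of ribonuclease H2, was the remaining higher gene (376 and 574, 0.60), and its value was under 1.5-fold without background correction. DFFA, the inhibitor of the apoptotic nuclease, read 1132 and 688 (-1.07), and ENDOD1 209 and 170 (-0.81, or -0.32 without background correction). Of the closest relatives of DNASE1L3, DNASE1 and DNASE1L2 were detected in neither array, and DNASE1L1 (152 and 158) passed the detection limit on the wild-type array only, with no fold.

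Interferon genes, receptors and signalling factors formed the next list. None of the 7 interferon genes on the list, IFNB1 among them, was detected in either array. Of 12 detected genes for interferon receptors and factors, 0 passed 1.5-fold upwards and 1 downwards, IFNGR2, a chain of the interferon gamma receptor (1764 and 1304, -0.73, under 1.5-fold with scaling to the median). JAK1 (-0.03) and USP18 (0.01) were nearest to level.

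Of 25 detected interferon-stimulated genes, 14 passed 1.5-fold downwards and 1 upwards, around a median difference of -0.76. Without background correction the median was -0.29, and 7 of the 14 lower genes were still at least 1.5-fold lower. OAS1 and OAS3, both lower, were also counted among the other sensors. IFI16 (1.16) and EIF2AK2 (0.74), both higher, were counted only there, so the split depends on how genes were listed. IFITM1 read 366 and 172 (-2.23, or -1.17 without background correction), IFITM3 3570 and 1705 (-1.39), IFITM2 2416 and 1223 (-1.31) and LGALS3BP 581 and 342 (-1.22). MX1, an antiviral GTPase, was seen on the wild-type array alone (228 and 139, at least 2.67-fold lower, and under 1.5-fold without background correction). The IFITM genes are close copies, so their probes may share signal. The higher gene was IFI44 (608 and 1209, 0.90), named after its value was seen. The 10 genes within 1.5-fold included IFI27 (0.57), HERC5 (0.54), IFI35 (0.53) and IFIT2 (0.53) on the higher side and HERC6 (-0.46) on the lower. IFIH1, itself interferon-stimulated, was lower too. Those 14 were counted because they were lower, so nothing is read from a shared direction. RIGI, TLR3 and IFNB1 were too dim to be placed.

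**Figure D3:**
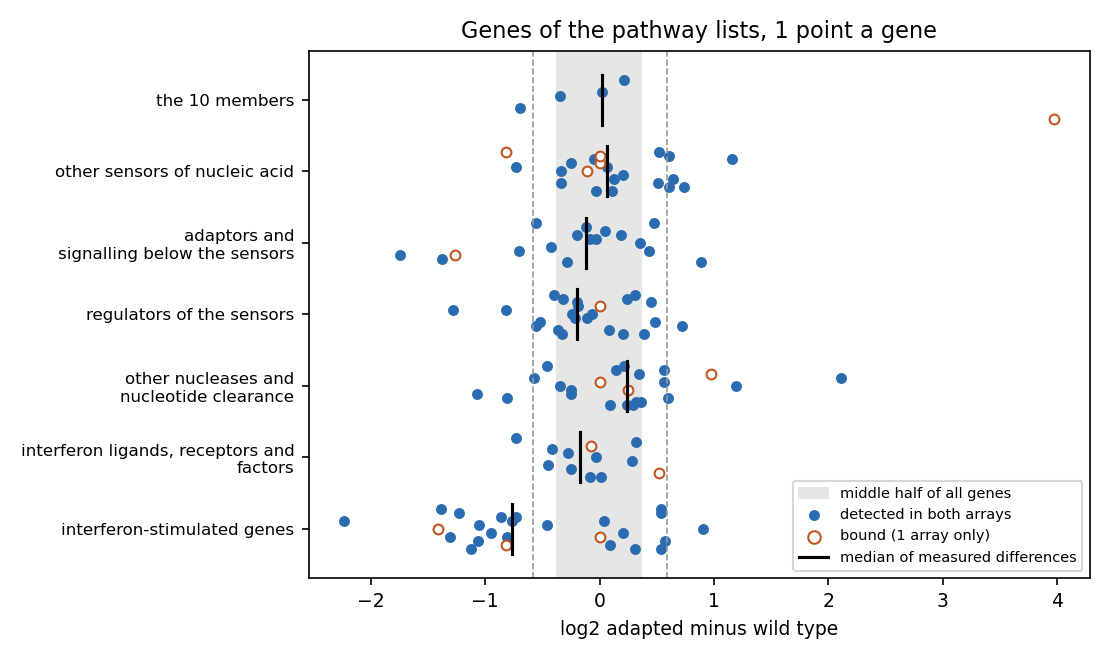
Difference in log2 (adapted minus wild type, x axis) of each detected gene of the 10 members and the 6 pathway lists, 1 point a gene, with vertical position inside a row for display only. Open points are bounds for genes detected in 1 array. Black bars are medians of the differences before bounds were set (-0.76 for interferon-stimulated genes). Grey marks the quartiles of all genes (-0.37 to 0.36) and dashed lines mark 1.5-fold.

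Neighbours on the chromosome were read because position played no part in choosing the genes. For each member, the 3 nearest measured genes on either side in RefSeq order were taken, 60 genes in all. Of these, 10 passed 1.5-fold upwards and 9 downwards, or 2 and 8 without background correction. Over all 11296 detected genes, 11.8% were higher and 12.2% lower, or 475 and 655 genes without background correction. Nothing is read from the neighbour counts against those. Around DNASE1L3 on chromosome 3, SLMAP (276 and 424, 0.75) and PXK (155 and 181, 0.64) were higher, ARF4 was lower (2816 and 2079, -0.73), and ABHD6 (0.31), RPP14 (0.04) and PDE12 (0.38) were within 1.5-fold. DNASE1L3 had the highest value of all 11296 genes, so its neighbours lay below its bound of 3.97 in any case, and nothing is read from that. Without background correction SLMAP (0.50) and PXK (0.21) were under 1.5-fold. Around IFIH1 on chromosome 2, COBLL1 was higher (0.66), 0 of 6 were lower, and TANK, an adaptor of TBK1, stood at -0.42. Of the other neighbours of detected members, CDC25B beside MAVS (1.57), GCDH beside DNASE2 (0.86) and SPATA24 beside STING1 (0.73) were higher. JUNB beside DNASE2 was lower (-1.85). Without background correction CDC25B (1.31) and JUNB (-0.94) kept 1.5-fold, and GCDH (0.58) and SPATA24 (0.27) did not. The neighbours of the 10 genes ranged from -2.18 for CXXC5, beside STING1, to 1.68 for MTO1, beside CGAS.

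**Figure D4:**
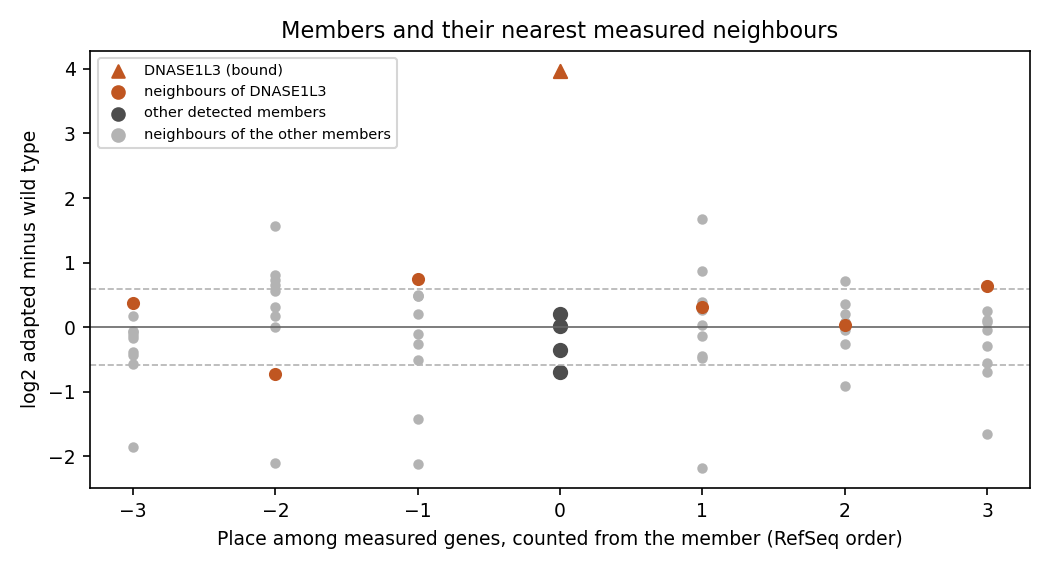
Difference in log2 (adapted minus wild type, y axis) of the detected members (place 0) and of the 3 nearest measured genes on each side (places -3 to 3 in RefSeq order), with the neighbours of DNASE1L3 in orange and those of the other members in grey. DNASE1L3 stands at a bound of 3.97 and its neighbours lie between -0.73 and 0.75.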

How the data were processed

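The intensity of each probe and its detection p-value were deposited by the authors, per the file headers as average signal and detection p, with no background subtracted (lowest values 100 and 102). The authors also deposited processed intensity values, with a median of 10.6 in both columns and 27.7% of them below 0; scale and direction were settled by rank (Spearman rho 1.00 with the same array's intensity, 0.861 with the other's), and no source used here states how they were made. No bead numbers or bead SDs were in the files, so none is given, although planned.

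Values were made with limma 3.58.1 in R 4.3.3 (neqc: normal-exponential background from the detection p, offset of 16, quantile normalisation, log2). A gene took its brightest probe among those with a detection p of at most 0.01 in at least 1 array. For a gene detected in 1 array, the difference is a bound, taken from the dim array's dimmest detected value or from the probe itself where that is brighter. Medians and quartiles were taken over the differences before any bound was set, so for such genes they read background signal as a value. Genes were counted at 1.5-fold. No test was run on 1 array per group, and the number of arrays limits the precision. Of 47323 probes, 30113 had 1 gene symbol, 8 several and 17202 none here; symbols follow RefSeq (GRCh38.p14) by gene ID, and gene order was taken from it. The normalisation was tested on simulated arrays with changes placed only in probes well above background. The detection limit, the bounds, the choice of probe and changes in dim probes were not tested. Counts were made in Python 3.11.15 with pandas 2.3.3 and numpy 2.4.6, and figures in matplotlib 3.10.9.

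All members are named with every probe. Of each list, up to 5 genes at least 1.5-fold apart with the largest values and up to 2 nearest to 0 were planned. Neighbours of detected members that were at least 1.5-fold apart are named, and the extremes over all neighbours. The members and lists were chosen with earlier results of these data known. Probe sequences were not used here.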

Additional observations from a re-analysis of the deposited data

How the results depend on the processing

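STING1, MAVS and DNASE2 moved by less than the scatter between probes of a gene, pooled over all brightness (SD 0.28), under each of 7 alternatives. Where the dimmer probe had a mean log2 value of 8 to 10, the range of STING1 and DNASE2, the SD was 0.226. With scaling to the median DNASE2 went from 0.02 to 0.26, more than that SD. STING1 went from -0.34 to -0.12, just under it. The bound of DNASE1L3 was 2.28 without background correction, 3.16 with an offset of 50 and 4.81 in the authors' processed values, and without a detection filter the difference was 4.31, taken against a wild-type signal at background and so not a measured fold. IFIH1 was -0.28 without background correction. The count of members at least 1.5-fold lower, 1 in the main setting, was 0 without background correction, 0 with an offset of 50 and 0 with a 2-fold limit. Without background correction, 475 of all genes were higher and 655 lower, against 1332 and 1375; with an offset of 50 the higher count was 873. No gene that was at least 1.5-fold apart among the members and lists changed sign without background correction, with an offset of 50, with median scaling, in the authors' values or with the mean over probes. Without background correction, higher and lower genes numbered 3 and 0 for other sensors (5 and 2), 0 and 2 for adaptors (1 and 4), 1 and 1 for regulators (1 and 2), 2 and 1 for other nucleases (4 and 2), and 1 and 7 for interferon-stimulated genes (1 and 14). Neighbours then numbered 2 higher and 8 lower (10 and 9). With median scaling the median of all genes was 0.17, and higher and lower genes numbered 3 and 2 for regulators and 7 and 2 for other nucleases; in the authors' values regulators had 1 and 4. Quantile normalisation of the same ranks fixes in advance the sign a probe has in most of these settings. Near the dimmest detected signal, as for MAVS and IFIH1, size rests on the background correction. No paired analysis was possible because each group is 1 array.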
